A study of Homo sapiens with 12 samples.

Results

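The T cell costimulatory and coinhibitory receptors are described here in a co-culture of human T and B cell lines treated with antibodies against PD1 and LAG3. They are the rows of 10 genes, CD28, ICOS, CTLA4, CD40LG, CD226, TIGIT, CD96, CRTAM, TNFRSF9 and TNFRSF4, out of 55782 gene symbols in the count table, over all 12 libraries. CD40LG encodes a ligand and the other 9 encode receptors. Jurkat is a T cell leukaemia line, used in a form selected to carry LAG3 and PD1, and Raji is a Burkitt lymphoma B cell line, used in a form selected to carry PDL1. RNA was taken after 24 h of co-culture, and cells of several wells were pooled into 1 pellet for each condition. All 4 arms share both lines and a superantigen carried by the Raji cells, staphylococcal enterotoxin D (SED, 100 ng/ml), which bridges MHC class II and the T cell receptor. The isotype arm received control antibody only, the anti-LAG3 arm received MK4280 with isotype, the anti-PD1 arm received MK3475 with isotype, and the combination arm received both MK3475 and MK4280. The doses were 1, 0.1 and 0.01 µg/ml of each antibody in the well. Each condition had 1 library without a replicate, so an arm is represented by its 3 doses, and p-values measure only the spread among the libraries, which may be of technical origin.

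A T cell needs a signal from its antigen receptor and a second signal from costimulatory receptors, while coinhibitory receptors oppose both. CD28 and ICOS signal through phosphoinositide 3-kinase after binding CD80 or CD86 and ICOSLG on the presenting cell, and CTLA4 competes with CD28 for CD80 and CD86. CD226, TIGIT and CD96 share ligands of the PVR and nectin family, with CD226 activating and TIGIT inhibitory, and CRTAM is a related adhesion receptor of activated T and NK cells that binds CADM1. CD40LG is the T cell signal to CD40 on B cells. TNFRSF9 (4-1BB) and TNFRSF4 (OX40) are receptors of the TNF receptor family that recruit TRAF adaptors.

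CD28 (GRCh38, chromosome 2, 203706475 to 203738912), CTLA4 (203867771 to 203873965) and ICOS (203936748 to 203961577) lie side by side on the plus strand of chromosome 2, with gaps of 128858 and 62782 bases between the genes. An entry for 7 of the 10 genes was found in the RefSeq table of promoters (GRCh38.p14, 250 bases before to 50 after an annotated start). The promoters of CD28, ICOS, CD226 and TNFRSF9 are printed because the first 3 transcripts rose with the dose of the combination and the last did not pass the test. Capitals mark GGAAA or its reverse TTTCC (the core that NFAT factors bind), TGANTCA (the AP-1 site) and the NF-kB consensus, searched on both strands.
CD28, chr2:203706389-203706688, plus strand: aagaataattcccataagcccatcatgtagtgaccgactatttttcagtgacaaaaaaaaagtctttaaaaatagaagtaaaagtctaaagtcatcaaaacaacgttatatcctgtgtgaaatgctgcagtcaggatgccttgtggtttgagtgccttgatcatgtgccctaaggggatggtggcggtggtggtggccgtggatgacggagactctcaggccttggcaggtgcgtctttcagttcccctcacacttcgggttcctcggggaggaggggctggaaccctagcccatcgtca
ICOS, chr2:203936513-203936812, plus strand: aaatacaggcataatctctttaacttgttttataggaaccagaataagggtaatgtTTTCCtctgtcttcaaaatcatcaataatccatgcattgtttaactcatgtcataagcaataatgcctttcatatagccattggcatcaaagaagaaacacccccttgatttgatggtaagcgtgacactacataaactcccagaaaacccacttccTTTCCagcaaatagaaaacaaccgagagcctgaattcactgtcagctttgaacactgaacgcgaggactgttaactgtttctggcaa
CD226, chr18:69956750-69957049, minus strand: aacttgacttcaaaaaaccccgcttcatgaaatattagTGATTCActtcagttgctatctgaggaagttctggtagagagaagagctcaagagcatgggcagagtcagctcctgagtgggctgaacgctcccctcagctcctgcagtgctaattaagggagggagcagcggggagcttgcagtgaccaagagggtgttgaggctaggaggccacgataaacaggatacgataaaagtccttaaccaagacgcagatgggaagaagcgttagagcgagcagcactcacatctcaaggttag
TNFRSF9, chr1:7940790-7941089, minus strand: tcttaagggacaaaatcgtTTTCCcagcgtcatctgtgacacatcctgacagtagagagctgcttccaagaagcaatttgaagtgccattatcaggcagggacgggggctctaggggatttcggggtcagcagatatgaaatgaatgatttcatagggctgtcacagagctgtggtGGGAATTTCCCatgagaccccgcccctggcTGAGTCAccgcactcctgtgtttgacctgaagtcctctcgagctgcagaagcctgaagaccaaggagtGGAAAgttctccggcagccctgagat
The CD28 window held none of the 3 motifs, the ICOS window 2 GGAAA cores and the CD226 window 1 TGANTCA site. RefSeq gives CD226 another start, whose window (chr18:69947824-69948123, minus strand) is not printed and held none of the 3 motifs. The TNFRSF9 window held 3 GGAAA cores, 1 TGANTCA site and 1 NF-kB stretch that is read on both strands and overlaps the second GGAAA core. Among 35116 RefSeq promoters of the same length, 61.2% held GGAAA, 7.71% held TGANTCA and 11.3% held the NF-kB consensus. These matches are letters in a window and are not evidence of binding.

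The libraries held 23593973 to 36581754 counts. Both lines were seen in every library by their markers: 16 of 16 T cell genes and 16 of 16 B cell genes were counted in all 12, with LAT the lowest (0.297 to 1.11 CPM, counts scaled to the library total, as CPM is everywhere below). The T markers summed to 1402 to 1501 CPM with isotype, 1542 to 1651 with anti-LAG3, 1432 to 1639 with anti-PD1 and 1505 to 1673 with the combination. The balance of the lines (mean log2 CPM over T markers less the mean over B markers) was 0.212 higher with anti-LAG3 than with isotype (exact two-sided permutation p = 0.1, the smallest that 3 libraries against 3 allow), 0.039 higher with anti-PD1 (exact permutation p = 0.5) and 0.065 higher with the combination (exact permutation p = 0.2). At 1, 0.1 and 0.01 µg/ml the balance was -1.713, -1.753 and -1.895 with anti-PD1, and -1.825, -1.85 and -1.8 with isotype. In the same dose order it was -1.605, -1.587 and -1.648 with anti-LAG3, and -1.77, -1.813 and -1.699 with the combination. Only with anti-PD1 did it rise at each step of dose, so in that arm balance and dose can hardly be separated. In such a mixture fewer cells of a line and less RNA per cell cannot be told apart.

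CD28 was the abundant transcript of the 10. Per gene length, its level with isotype was 45.8 ± 2.33 TPM (transcript level per gene length, scaled to the same total, SD over the 3 isotype libraries), followed by CD96 at 8.29 ± 0.273 TPM and CD226 at 1.83 ± 0.10 TPM, and these 3 did not overlap in the isotype libraries. TNFRSF9 (1.01 ± 0.297 TPM), ICOS (0.891 ± 0.122 TPM), CD40LG (0.799 ± 0.285 TPM), TNFRSF4 (0.724 ± 0.162 TPM) and CRTAM (0.606 ± 0.213 TPM) followed, and each overlapped its neighbour in this order over the isotype libraries. With the combination at 1 µg/ml the order was CD28 (96.4 TPM), CD96 (15.1 TPM), CRTAM (10.6 TPM) and ICOS (6.46 TPM), then CD40LG and CD226 (both 6.22 TPM), TNFRSF4 (1.45 TPM) and TNFRSF9 (1.22 TPM). CRTAM thus stood at the foot of the 8 counted genes with isotype and behind only CD28 and CD96 with the combination at the top dose. The 10 genes together made 93.08, 87.24 and 94.06 CPM with isotype at 1, 0.1 and 0.01 µg/ml and 209.3, 120.1 and 93.28 CPM with the combination.

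**Figure D1:**
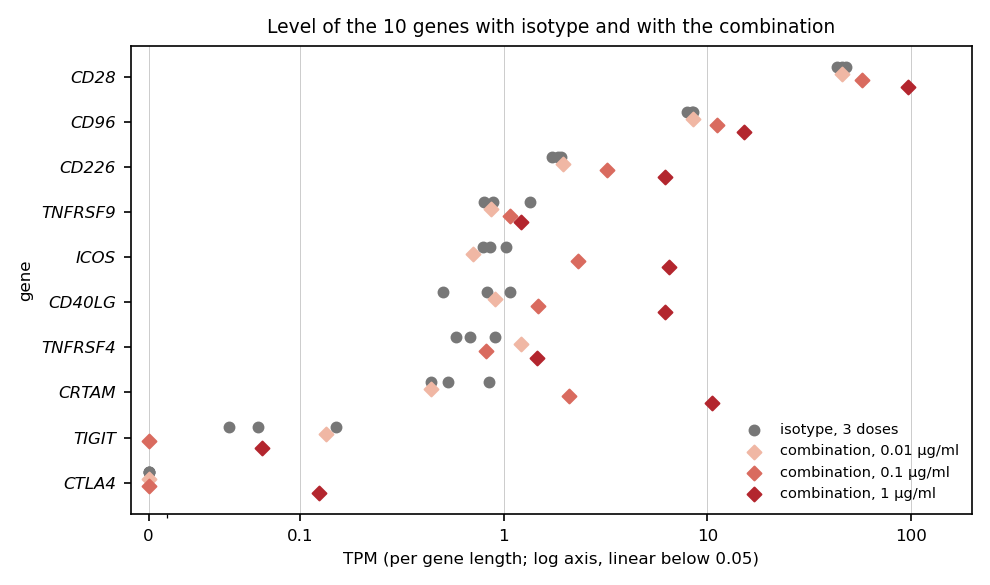
Level of each of the 10 genes in TPM (log axis, linear below 0.05): grey circles are the 3 isotype libraries and diamonds the combination at its 3 doses, 1 library each. CRTAM moves from 0.441 to 0.846 TPM with isotype to 10.6 TPM with the combination at 1 µg/ml, while TNFRSF9 stays among its isotype values.

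CTLA4 and TIGIT had too few counts to be followed from library to library. CTLA4 had 4 counts in all 12 libraries, 2 of them with anti-LAG3 at 0.1 µg/ml and 2 with the combination at 1 µg/ml, and the exact 95% Poisson interval of a count of 0, which covers counting error only, reached 0.101 to 0.156 CPM. TIGIT had 33 counts in all, between 0 and 7 in a library, and its highest level was 0.265 CPM with isotype at 0.1 µg/ml. Neither passed the filter on low counts, and 8 of the 10 genes were tested. No difference in these coinhibitory transcripts was tested in the main fits. With no filter on low counts neither was called, but so few counts could hardly show a change.

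Dose trends were read as a slope, the log2 change for each 10-fold rise in dose, in each arm minus that of the isotype arm. Every adjusted p below is from edgeR's quasi-likelihood F test with Benjamini-Hochberg adjustment over the 15535 genes tested and a change was called at an adjusted p under 0.05. The sign ± gives the standard error, except where SD stands beside it. Intervals in parentheses after a CPM or a ratio are 95% intervals that cover counting error only.

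Of the CD28 family, CD28 and ICOS rose with the dose of the combination. CD28 was at 139 CPM with the combination at 1 µg/ml (134 to 143), 82.1 at 0.1 and 66.8 at 0.01 µg/ml. With isotype it was at 67.4, 62.1 and 68.5 CPM in the same dose order, with anti-LAG3 at 90.6, 76.3 and 68.2, and with anti-PD1 at 91.5, 70.3 and 66.1. The 3 antibody arms were above isotype at 1 µg/ml, and at 0.01 µg/ml all 4 arms lay within 66.1 to 68.5 CPM. The slope of the combination minus that of isotype was 0.53 ± 0.10 log2 per 10-fold dose (adjusted p = 0.0156). ICOS, which T cells display after activation, was at 5.04 CPM with the combination at 1 µg/ml (4.21 to 5.98), 1.78 at 0.1 and 0.557 at 0.01 µg/ml. With isotype it was at 0.629, 0.794 and 0.659 CPM, with anti-LAG3 at 2.02, 0.873 and 0.533, and with anti-PD1 at 1.66, 0.985 and 0.636. ICOS thus rested on 130 counts in the top combination library and 23 in the matched isotype library. Its combination slope exceeded that of isotype by 1.59 ± 0.31 (adjusted p = 0.00231), and the steps from 0.01 to 0.1 and from 0.1 to 1 µg/ml were of like size, 3.19-fold and 2.83-fold.

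CD40LG (chromosome X, 136648193 to 136660390, plus strand) also rose with the combination. It was at 3.33 CPM at 1 µg/ml (86 counts, 2.67 to 4.12), 0.778 at 0.1 and 0.488 at 0.01 µg/ml. With isotype it was at 0.273, 0.567 and 0.439 CPM, with anti-LAG3 at 0.537, 0.476 and 0.533, and with anti-PD1 at 1.02, 0.452 and 0.381. The step from 0.1 to 1 µg/ml of the combination was 4.28-fold and the step below it 1.60-fold, so the top library stood apart from the other 11. The combination slope exceeded that of isotype by 1.81 ± 0.43 (adjusted p = 0.0138). Taken against 0 the slopes were 1.51 with the combination and -0.30 with isotype, so part of this difference came from the isotype series.

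Of the receptors for PVR, nectins and their relatives, CD226, CD96 and CRTAM rose with the combination. CD226 (chromosome 18, 69831158 to 69961803, minus strand), the activating receptor of the group, was at 25 CPM with the combination at 1 µg/ml (23.1 to 27.0), 12.8 at 0.1 and 7.91 at 0.01 µg/ml. With isotype it was at 7.54, 7.67 and 6.85 CPM, with anti-LAG3 at 11.2, 8.10 and 7.08, and with anti-PD1 at 11.2, 8.54 and 7.63. Each combination library was above every isotype library, and both single antibodies were above isotype at the top dose. At 0.01 µg/ml the ratio of the combination to isotype was 1.15 (0.947 to 1.41), within counting error. Its slope difference was 0.76 ± 0.11 (adjusted p = 0.000104). CD96 (chromosome 3, 111292719 to 111665750, plus strand), described as inhibitory in some settings and activating in others, was at 25.6 CPM with the combination at 1 µg/ml (23.7 to 27.6), 18.7 at 0.1 and 14.6 at 0.01 µg/ml. With isotype it was at 14.8, 13.5 and 14.1 CPM, with anti-LAG3 at 17.0, 17.1 and 15.5, and with anti-PD1 at 19.1, 16.1 and 13.7. CD96 had the smallest slope difference of the 6 called genes, 0.35 ± 0.09 (adjusted p = 0.0163).

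CRTAM (chromosome 11, 122838500 to 122872639, plus strand) changed by the largest factor of the 8 tested genes. It was at 8.37 CPM with the combination at 1 µg/ml (216 counts, 7.29 to 9.56), 1.63 at 0.1 and 0.348 at 0.01 µg/ml. With isotype it was at 0.355, 0.416 and 0.659 CPM, with anti-LAG3 at 2.59, 0.953 and 0.381, and with anti-PD1 at 0.987, 0.944 and 0.466. From the low to the top dose this was 24.0-fold with the combination, in steps of 4.68-fold and 5.13-fold, and 6.80-fold with anti-LAG3. With isotype the value at 1 µg/ml was 0.539 of that at 0.01 µg/ml, on 13 and 18 counts. The slope difference to isotype was 2.75 ± 0.34 (adjusted p = 1.15e-05) for the combination.

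TNFRSF9 and TNFRSF4, the TNF receptor family members, did not pass the test in any comparison. TNFRSF9 (chromosome 1, 7915894 to 7943165, minus strand) was at 2.29, 1.96 and 1.64 CPM with the combination at 1, 0.1 and 0.01 µg/ml and at 1.69, 1.47 and 2.49 with isotype. The combination libraries lay inside the range of the isotype libraries, and the slope difference was 0.50 ± 0.24 (adjusted p = 0.258). Taken against 0 the slopes were 0.25 with the combination and -0.26 with isotype, so part of this difference came from the isotype series. TNFRSF4 (chromosome 1, 1211326 to 1214138, minus strand) had 4 to 19 counts in a library, with 0.736, 0.408 and 0.627 CPM in the combination and 0.355, 0.454 and 0.293 CPM with isotype. Its slope difference was -0.01 ± 0.47 (adjusted p = 0.995), an error as wide as the slope of CD28, so a change of that size could not be seen in TNFRSF4.

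**Figure D2:**
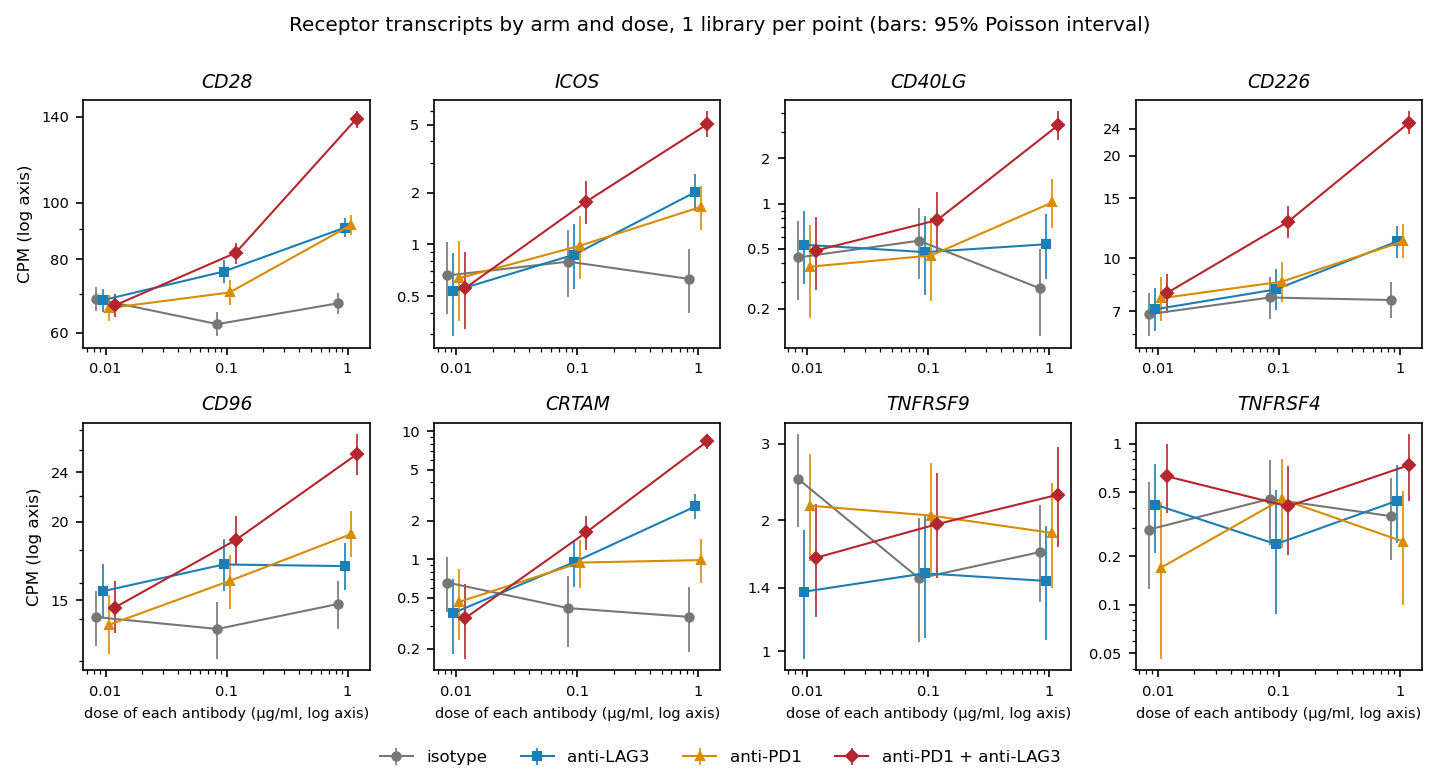
CPM (log axis) of the 8 tested genes against antibody dose (log axis), 1 library per point, coloured by arm and set slightly apart sideways for legibility, with 95% Poisson intervals of the counts. For CD28, ICOS, CD40LG, CD226, CD96 and CRTAM the combination at 1 µg/ml lies above the other 11 libraries. TNFRSF4 is also highest there (0.736 CPM, 19 counts). Its ratio to anti-PD1 is 2.98 (1.2 to 8.4) at 1 µg/ml and 3.7 (1.22 to 15) at 0.01 µg/ml, by counting error only. For TNFRSF9 and TNFRSF4 the intervals of all 4 arms overlap at 1 and 0.1 µg/ml. At 0.01 µg/ml those of TNFRSF9 do not overlap between isotype (1.93 to 3.16) and anti-LAG3 (0.96 to 1.9).

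With the combination 6 of the 8 tested genes were called, all 6 upward, against 4.63% of all genes tested (719 genes, 284 up and 435 down). The median slope difference of the 8 was 0.643, against 0.006 over all genes. Of the 8, 7 had their CPM in dose order (1 above 0.1 above 0.01 µg/ml), and 18.8% of all tested genes had that order in this arm. With isotype 0 of 8 had it, against 14.9% of all genes. T markers beside these genes did not all move the same way: of 16, 2 rose (among them TRAC, 0.58 ± 0.06), 4 had a lower slope than with isotype (BCL11B, CD3E, CD3G and LCK, -0.51 to -0.19) and their median was -0.10, and 0 of 16 B markers were called. With the balance of the lines as a covariate the same 6 genes were called. Under DESeq2's Wald test 4 were called, without CD40LG (adjusted p = 0.151) and CD96 (adjusted p = 0.182). Each end of the dose series carried weight: 1 gene was called without the isotype library at 1 µg/ml (CRTAM), 1 without that at 0.01 µg/ml (CD226, with CRTAM at an adjusted p of 0.0558), 1 without the combination library at 1 µg/ml (CRTAM), and 4 without the combination library at 0.01 µg/ml. Without the combination library at 1 µg/ml the slope difference of CD28 was 0.28 and that of CD40LG 0.97, without the isotype library at 1 µg/ml that of CD40LG was 1.15, and without the isotype library at 0.01 µg/ml that of CD96 was 0.23.

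**Figure D3:**
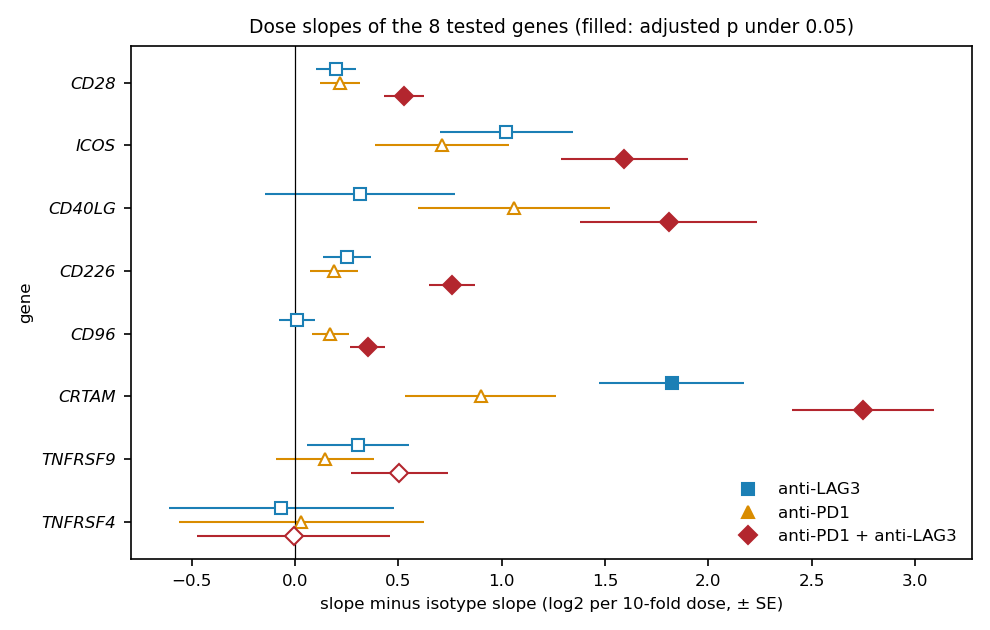
Slope of each antibody arm minus the isotype slope, in log2 per 10-fold dose with its standard error, for the 8 tested genes. Filled symbols passed the test: 6 for the combination (0.35 for CD96 to 2.75 for CRTAM), 1 for anti-LAG3 (CRTAM, 1.82) and 0 for anti-PD1.

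With anti-LAG3 alone 1 of 8 genes was called, CRTAM, which rose by 1.82 ± 0.35 log2 per 10-fold dose more than with isotype (adjusted p = 0.0331), against 0.0708% of all genes (11 genes). ICOS had a slope difference of 1.02 ± 0.32 (adjusted p = 0.390), CD226 of 0.25 ± 0.12 (adjusted p = 0.609) and CD28 of 0.20 ± 0.10 (adjusted p = 0.665). CD40LG (0.32 ± 0.46) and CD96 (0.01 ± 0.09) were nearer to 0 for their errors. In this arm 4 of the 8 genes had their CPM in dose order, against 18.5% of all genes. The CRTAM call was lost under DESeq2 (adjusted p = 0.229) and without the library at 1 or 0.01 µg/ml of isotype or of anti-LAG3, or the combination library at 1 µg/ml, with slope differences of 1.57 to 2.06 over all libraries left out in turn.

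With anti-PD1 alone 0 of 8 genes were called by edgeR, against 0.264% of all genes (41 genes). DESeq2 also called 0, but among the 8 it gave an adjusted p for CD28 only, so its 0 tells nothing of the others. At an unadjusted p under 0.05 in edgeR there were 3: CD40LG (1.06 ± 0.46, adjusted p = 0.389), CRTAM (0.90 ± 0.37, adjusted p = 0.344) and ICOS (0.71 ± 0.32, adjusted p = 0.418). Taken against 0, the slopes of CD40LG and CRTAM in this arm were 0.76 and 0.47, and with isotype -0.30 and -0.43. Part of both differences thus came from the isotype series. CD28 had a slope difference of 0.22 ± 0.10 (adjusted p = 0.457), CD226 of 0.19 ± 0.12 and CD96 of 0.17 ± 0.09. In this arm 6 of the 8 genes had their CPM in dose order, against 17.1% of all genes. With no filter on low counts CD28 was called (adjusted p = 0.0494).

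The combination was set against each single antibody in the same fit. Against anti-PD1, 2 of 8 genes were called, CRTAM (1.85 ± 0.33, adjusted p = 0.00477) and CD226 (0.57 ± 0.11, adjusted p = 0.00942), against 0.644% of all genes. ICOS (0.88 ± 0.30, adjusted p = 0.241), CD28 (0.31 ± 0.10, adjusted p = 0.279) and CD96 (0.18 ± 0.09, adjusted p = 0.497) had an unadjusted p under 0.05. Against anti-LAG3, 1 of 8 was called, CD226 (0.51 ± 0.11, adjusted p = 0.0223), against 0.766% of all genes. CD96 (0.34 ± 0.09, adjusted p = 0.0575) and CD40LG (1.49 ± 0.41, adjusted p = 0.101) were next, and CRTAM differed by 0.92 ± 0.32 (adjusted p = 0.235). These 3 calls were lost with the balance of the lines as a covariate, at differences of like size (CRTAM 2.10, adjusted p = 0.160, and CD226 0.57 and 0.51, adjusted p = 0.815 and 0.0953), and those of CD226 also under DESeq2 (0.0975 and 0.237). Markers of the lines were called beside them. Against anti-PD1 the T marker CD3E had a lower slope (-0.26 ± 0.05, adjusted p = 0.0145) and the B markers CD79B (0.18 ± 0.04, adjusted p = 0.0378) and SPIB (0.21 ± 0.05, adjusted p = 0.0329) higher ones. Against anti-LAG3, 2 of 16 T markers had higher slopes, among them TRAC (0.41 ± 0.06), and 0 of 16 B markers were called. Their part in the result was not tested. Against anti-PD1, 0 genes were called without the anti-PD1 library at 1 or 0.01 µg/ml or the combination library at 1 µg/ml. Against anti-LAG3, 0 were called without the anti-LAG3 library at 1 µg/ml, that at 0.01 µg/ml or the combination library at 1 µg/ml, and 2 with any 1 of the 3 anti-PD1 libraries or the combination library at 0.1 µg/ml left out. Without the combination library at 0.01 µg/ml CD226 was not called against anti-PD1 (adjusted p = 0.0669) or anti-LAG3 (adjusted p = 0.133), while CD28 was.

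At 1 µg/ml the combination could be set beside the product of the 2 single-antibody ratios, with 1 library for each. CRTAM was 23.6 times its isotype value with the combination (13.5 to 44.9), 7.29 times with anti-LAG3 (4.04 to 14.3) and 2.78 times with anti-PD1 (1.39 to 5.84), and the product of the single ratios was 20.3. For ICOS the combination ratio was 8.01 (5.12 to 13.1) beside a product of 8.48, and for CD40LG 12.2 (6.32 to 26.3) beside 7.35. For CD226 the combination ratio was 3.31 (2.87 to 3.83) beside a product of 2.20, which is 1.5 times the product (1.22 to 1.85). CD28 was 1.13 times its product (1.05 to 1.21) and CD96 1.16 times (0.984 to 1.37). The excess over the product lay beyond counting error for CD226 and CD28 only among these 6 genes, and no replicate says how such ratios vary between cultures. In the slope model the non-additive term, combination minus both single antibodies plus isotype, was called for 0 of 8 genes, against 0% of all genes (0 by edgeR and 0 by DESeq2, with 1029 genes and 0 of the 8 at an unadjusted p under 0.05). CD226 had 0.32 ± 0.16 (unadjusted p = 0.0584, adjusted p = 0.783).

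**Figure D4:**
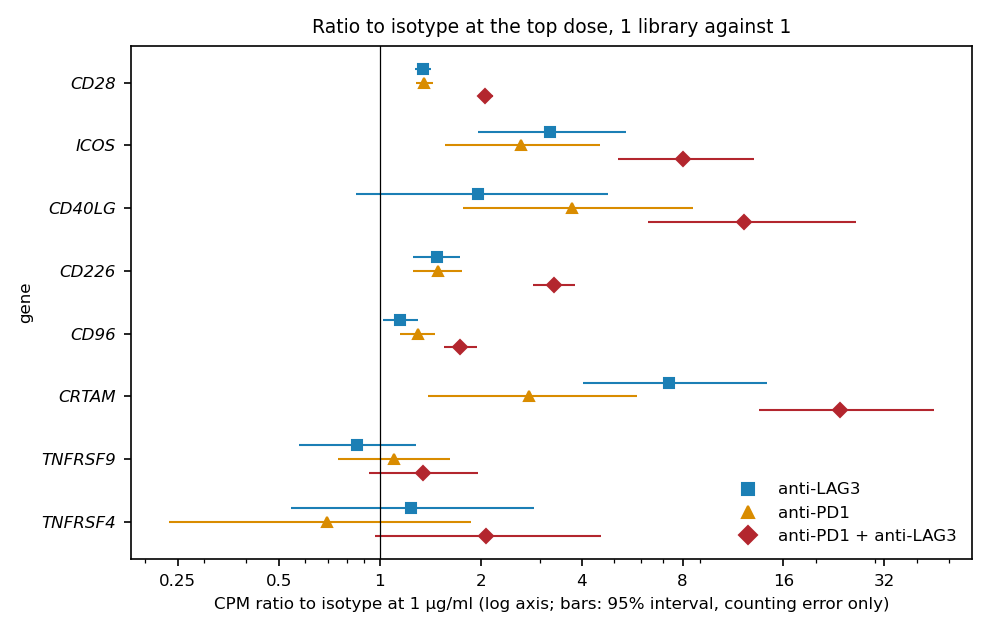
CPM ratio to the isotype library at 1 µg/ml (log axis) for each antibody arm, 1 library against 1, with 95% intervals that cover counting error only. The combination ratio runs from 1.35 for TNFRSF9 to 23.6 for CRTAM, and for all 8 genes it exceeds both single-antibody ratios. Its interval includes 1 for TNFRSF9 (0.928 to 1.96) and TNFRSF4 (0.971 to 4.56).

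Arm means over the 3 doses did not pass the test. For the combination 0 of 8 genes were called against 0.00644% of all genes (1 gene), with 6 of the 8 at an unadjusted p under 0.05 and 0 called by DESeq2. The mean differences of those 6 were 2.58 ± 0.87 log2 for CRTAM, 1.72 ± 0.54 for CD40LG, 1.67 ± 0.40 for ICOS, 0.98 ± 0.25 for CD226, 0.49 ± 0.18 for CD28 and 0.46 ± 0.11 for CD96, with adjusted p from 0.146 to 0.673. The mean model has no term for a dose response that 1 arm has and another lacks, which adds to its residual spread. With no filter on low counts 4 of them were called (ICOS, CD40LG, CD226 and CD96), without the combination library at 0.01 µg/ml the same 4, and without the isotype library at 0.01 µg/ml ICOS and CD96. For anti-LAG3 0 of 8 were called against 10.0% of all genes (1560 genes), with 1 at an unadjusted p under 0.05 (CD96), and for anti-PD1 0 of 8 against 3.82% (594 genes), with 0 at an unadjusted p under 0.05. DESeq2 called 0 of the 8 in both.

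The authors' deposited tables compare each antibody library with the 3 isotype libraries and were read as they stand. In the authors' deposited table for the combination at 1 µg/ml, 6 of the 8 genes it lists had an adjusted p under 0.05, against 1.73% of all genes with an adjusted p there. They were CRTAM (4.18 ± 0.438 log2), CD40LG (3.02 ± 0.588), ICOS (2.89 ± 0.46), CD226 (1.79 ± 0.19), CD28 (1.09 ± 0.106) and CD96 (0.881 ± 0.166), from the authors' deposited table. In the authors' deposited tables for anti-LAG3 and anti-PD1 at 1 µg/ml an adjusted p is given for 2 (CD28 and CD96) and 4 (CD28, CD226, CD96 and TNFRSF9) of these genes. Of those only CD28 had one under 0.05, at 0.459 and 0.472 log2, against 2.58% and 0.443% of the genes with an adjusted p. The authors' deposited table for anti-LAG3 gives CRTAM a difference of 2.46 ± 0.599 with no adjusted p. These tables share the isotype libraries with each other and with the fits above.

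Of 12 ligands and binding partners of these receptors fixed in a list, 11 were tested and 0 were called in any slope comparison, beside 4.63% of all genes for the combination. The median slope difference of the combination was -0.023, with 0.42 ± 0.15 for ICOSLG (adjusted p = 0.117) and 0.46 ± 0.24 for TNFSF4, the ligand of TNFRSF4 (adjusted p = 0.314). The CD28 ligands CD80 (16.3 to 21.1 CPM) and CD86 (38.5 to 44.4 CPM), the ICOS ligand ICOSLG (4.45 to 7.11 CPM), CD40 (103 to 120 CPM) and CADM1, the partner of CRTAM (2.48 to 3.48 CPM), were counted in all 12 libraries. TNFSF9, the ligand of TNFRSF9, rose in arm mean with anti-LAG3 by 0.20 ± 0.06 log2 (adjusted p = 0.0296) and with anti-PD1 by 0.28 ± 0.06 (adjusted p = 0.0126). In each of these arms this was 1 of the 11, beside 10.0% of all genes for anti-LAG3 and 3.82% for anti-PD1. TNFSF9 was at 32 to 34.2 CPM with isotype, 37.1 to 38.4 with anti-LAG3, 37.7 to 42.0 with anti-PD1 and 35.8 to 38.8 with the combination. No antibody arm overlapped isotype, and the mean difference of the combination was 0.17 ± 0.06 (adjusted p = 0.491).

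Of 37 other co-signalling receptors and ligands, 36 were found by symbol, 26 were tested and 2 were called for the combination slope, 1 in each direction, beside 4.63% of all genes, with a median of 0.077. TNFRSF1B, the second TNF receptor, had a slope above that of isotype by 0.68 ± 0.13 (adjusted p = 0.00159). It was at 15.0, 8.34 and 7.77 CPM in the combination and 6.40, 6.88 and 8.57 CPM with isotype at 1, 0.1 and 0.01 µg/ml. Part of its slope difference thus came from the isotype series. TNFRSF8 (CD30) had a slope below that of isotype by 0.47 (adjusted p = 0.00739), and went from 16.8 to 9.30 CPM between the low and top dose of the combination. The slopes of anti-LAG3 and anti-PD1 called 0 of the 26, beside 0.0708% and 0.264% of all genes. In arm mean LGALS9, a galectin, rose with anti-LAG3 (0.25 ± 0.06, adjusted p = 0.00754) and anti-PD1 (0.23 ± 0.06, adjusted p = 0.0297), PDCD1 with anti-LAG3 (0.20 ± 0.05, adjusted p = 0.0254) and TNFRSF14, the receptor HVEM, with anti-PD1 (0.25 ± 0.06, adjusted p = 0.0250). These were 2 of the 26 in each arm, beside 10.0% of all genes for anti-LAG3 and 3.82% for anti-PD1. With the balance of the lines as a covariate, which was higher in the anti-LAG3 arm, LGALS9 (0.29, adjusted p = 0.242), PDCD1 (0.18, adjusted p = 0.504) and TNFSF9 (0.37, adjusted p = 0.0918) were not called with anti-LAG3. The balance did not overlap between anti-LAG3 and isotype libraries, so this fit can hardly separate the covariate from the arm. The slope calls of TNFRSF1B and TNFRSF8 were lost without the isotype library at 1 µg/ml (0.82 and -0.28) or the combination library at 1 µg/ml (0.29 and -0.20), and that of TNFRSF1B also without the isotype library at 0.01 µg/ml (0.55). That of TNFRSF8 was lost under DESeq2 (adjusted p = 0.0549).

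Of 27 signal transducers of these receptor families, all 27 were tested and 5 were called for the combination slope, 3 up and 2 down, beside 4.63% of all genes, with a median of 0.084. TRAF1, an adaptor of TNF receptors, had a slope above that of isotype by 0.23 ± 0.05 (adjusted p = 0.00613), with 113, 107 and 92.7 CPM in the combination and 92.0, 97.4 and 106 CPM with isotype at 1, 0.1 and 0.01 µg/ml. PIK3CD, a catalytic subunit of phosphoinositide 3-kinase, differed by 0.16 ± 0.04 (adjusted p = 0.0349), with 302, 293 and 265 CPM in the combination and 263, 280 and 294 CPM with isotype. GRAP2, the adaptor GADS that binds CD28 and LCP2, had a slope below that of isotype by 0.49 (adjusted p = 4.35e-05), with 19.6, 28.5 and 36.9 CPM in the combination and 35.0, 35.6 and 33.8 CPM with isotype. LCK, the kinase that starts T cell receptor signalling, had a slope difference of -0.19 ± 0.04 (adjusted p = 0.0117), with 271, 281 and 307 CPM in the combination and 310, 280 and 275 CPM with isotype. For TRAF1, PIK3CD and LCK part of the slope difference thus came from the isotype series. GRAP2 was also called against anti-PD1 (-0.41 ± 0.07, adjusted p = 0.00256) and anti-LAG3 (-0.32 ± 0.07, adjusted p = 0.0200). Both of these calls were lost with the balance of the lines as a covariate (-0.52, adjusted p = 0.226, and -0.37, adjusted p = 0.0522) and without the library at 1 or 0.01 µg/ml of either arm compared, and the one against anti-LAG3 also under DESeq2 (adjusted p = 0.200). In arm mean with anti-LAG3, LCK rose (0.27 ± 0.05, adjusted p = 0.00264), as did AP2M1, a clathrin adaptor that takes CTLA4 from the surface (0.15 ± 0.04, adjusted p = 0.0228). BIRC3 (-0.17 ± 0.05, adjusted p = 0.0169), the lipid phosphatase gene INPP5D (-0.17 ± 0.05, adjusted p = 0.0213) and the paracaspase gene MALT1 (-0.17 ± 0.05, adjusted p = 0.0388) fell. BIRC3, an inhibitor of apoptosis that TRAF adaptors recruit, fell also with anti-PD1 (-0.17 ± 0.05, adjusted p = 0.0404). For the anti-LAG3 mean 2 of the 27 were thus called up and 3 down, beside 10.0% of all genes. For the anti-PD1 mean 1 was called, beside 3.82%. With the balance of the lines as a covariate none of these 5 was called with anti-LAG3. Their differences were then 0.23 for LCK (adjusted p = 0.323), 0.23 for AP2M1 (0.178), -0.17 for BIRC3 (0.405), -0.09 for INPP5D (0.720) and -0.07 for MALT1 (0.821). LCK is itself among the markers that make up the covariate. The balance was -1.648 to -1.587 with anti-LAG3 and -1.85 to -1.8 with isotype, without overlap. This fit can therefore hardly separate the covariate from the arm, and no conclusion is drawn from the lost calls. The combination slope of GRAP2 against isotype was called with each of the 12 libraries left out in turn (-0.57 to -0.42). The calls of TRAF1 and PIK3CD were lost without either end of the isotype or combination series, that of PIK3CD also without any 1 anti-LAG3 library, under DESeq2, with no filter and with the covariate, and that of LCK without the isotype library at 1 µg/ml (-0.10) or the combination library at 1 or 0.01 µg/ml. Taken against 0, the combination slopes of LCK (-0.08, adjusted p = 0.177) and PIK3CD (0.10, adjusted p = 0.0602) did not pass the test.

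The 6 called genes followed each other over the libraries. Pearson r of log2 CPM between any pair of them was 0.81 (CD40LG with CRTAM) to 0.97 (ICOS with CD226) over the 12 libraries, while TNFRSF9 and TNFRSF4 had r of 0.26 to 0.48 with the 6 and -0.12 with each other. These values are descriptions: the points share libraries, and the top combination library is high for all 6. The 6 were also chosen by their combination slope in these same libraries, so a high r among them was largely set in advance. Outside the 10 genes, those most like CD226 were LCP2, the adaptor SLP-76 (r = 0.994, 12 libraries), and STAT3 (r = 0.985). LCP2 was at 117, 57.1 and 34.5 CPM with the combination and 33.0, 35.4 and 33.2 CPM with isotype. Those most like CRTAM were NR4A1, a nuclear receptor gene of the immediate early response, and the chemokine gene XCL1 (both r = 0.971), of which the latter has a near-identical copy in XCL2 and is uncertain. NR4A1 was at 45.5, 16.0 and 7.42 CPM with the combination and 24.4, 9.29 and 8.34 CPM with anti-LAG3. CD28 was most like IGFLR1 (r = 0.986) and PTGER4 (r = 0.985), ICOS like GCNT4 (r = 0.979) and ATP6V0A4 (r = 0.978), CD40LG like GAS7 (r = 0.958) and LYST (r = 0.946), and CD96 like GBP2 (r = 0.973) and DPF3 (r = 0.971). TNFRSF9 was most like DDX19B (r = 0.892) and PLCG2 (r = 0.880), and TNFRSF4 like SETDB1 (r = 0.853) and SDCCAG8 (r = 0.845). Each named gene was picked as a highest r among the 15535 genes tested, over only 12 libraries. TNFRSF4 had 4 to 19 counts in a library and SETDB1 stayed at 36.2 to 40.7 CPM. No link is read from the r values of TNFRSF9 and TNFRSF4.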

How the data were processed

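Total RNA of 12 co-culture pellets was sequenced, and the labels give the molecule as polyA RNA. The authors deposited raw read counts per gene symbol with a gene length in base pairs, and for each antibody library a table of log2 fold changes with standard errors, p-values and adjusted p-values against the isotype libraries, per the file headers. The submitters' processing notes name GRCh38, DESeq2, STAR 2.5.2b, Subread 1.5.2 with featureCounts, and Trimmomatic 0.36, and the strand setting is not given in the sources used here. The annotated spans of CD226 and DOK6 (20 counts in all 12 libraries), and of CD96 and ZBED2 (192 counts), overlap on opposite strands. Whether their exons overlap was not examined, so it is not known if reads of these pairs could be told apart. Left out were 4 count columns that match no sample and 36 per-sample columns of the comparison tables.

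CPM is the count scaled to the library total, and TPM uses the deposited gene length. Genes were kept by filterByExpr (arm as group, minimum count 10), scaled by TMM and tested in R 4.3.3 with edgeR 4.0.16 (quasi-likelihood F test, robust) over all 12 libraries. The slope model held arm and a slope per arm on log10 dose centred at 0.1 µg/ml (4 residual degrees of freedom), and the mean model held arm and dose as a factor (6). Intervals of ratios are exact, except those of the ratio to the product, which are normal approximations on the log scale. Correlations used log2 CPM with a prior count of 2. Gene positions are from the GENCODE annotation of GRCh38. The alternatives were DESeq2 1.42.0, RLE size factors, no filter on low counts, the balance of T and B markers as a covariate, slopes against 0, arm alone in the mean model, only the arms compared, and each library left out in turn.

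The 10 genes were always reported, list members were named where called in at least 1 of the 9 comparisons (1 of them is not reported here), and the 2 most similar genes were named by Pearson r. The genes and lists were chosen with earlier results of these data known.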

Additional observations from a re-analysis of the deposited data

Results flagged for a closer look

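Dose slopes that differed between the combination and a single antibody by a test of the difference itself were found for CD226 and CRTAM. The combination slope of CD226 exceeded that of anti-PD1 by 0.57 ± 0.11 (SE) log2 per 10-fold dose (edgeR quasi-likelihood test, adjusted p = 0.00942) and that of anti-LAG3 by 0.51 ± 0.11 (adjusted p = 0.0223). The combination slope of CRTAM exceeded that of anti-PD1 by 1.85 ± 0.33 (adjusted p = 0.00477). In each case the combination was above the single antibody at both 1 and 0.1 µg/ml: CD226 was at 25 and 12.8 CPM against 11.2 and 8.54 with anti-PD1 and 11.2 and 8.10 with anti-LAG3, and CRTAM at 8.37 and 1.63 CPM against 0.987 and 0.944 with anti-PD1. All 3 calls were lost with the balance of the lines as a covariate. They were also lost without the combination library at 1 µg/ml, or the single-antibody library at 1 or 0.01 µg/ml. Under DESeq2 those of CD226 were lost and CRTAM had no adjusted p. With 3 libraries in each arm, no library was tested for standing apart from its arm.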

How the results depend on the processing

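For the combination slope 6 of the 8 genes were called, 4 to 6 under the alternative settings and 1 to 6 with each library left out in turn. For anti-LAG3 the count of 1 became 0 under DESeq2 and 2 with the slope taken against 0 (ICOS and CRTAM), and was 0 to 1 with a library left out. For anti-PD1 the count of 0 became 1 with no filter on low counts and was 0 with any library left out. The combination minus anti-PD1 count of 2 became 0 under DESeq2, where CRTAM has no adjusted p, and 0 with the marker covariate, and was 0 to 3 with a library left out. The combination minus anti-LAG3 count of 1 became 0 under DESeq2, 0 with the marker covariate, 3 with no filter and 2 with only the arms compared, and was 0 to 2 with a library left out. In arm means the anti-LAG3 count of 0 became 1 with only the arms compared (CD28) and the combination count of 0 became 4 with no filter and 0 to 4 with a library left out, and the anti-PD1 count stayed 0 in every setting run. The non-additive count stayed 0 in every setting run.

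Signs turned only in slope differences that had not passed the test. For TNFRSF4 the combination value became 0.13 with the covariate and 0.13 against 0 (-0.75 to 0.73 with a library left out), the anti-LAG3 value 0.0678 against 0 (-0.92 to 0.74), the anti-PD1 value -0.53 with the covariate (-0.98 to 1.22) and the combination minus anti-PD1 value 0.66 with the covariate (-1.23 to 0.98), while the combination minus anti-LAG3 value was -0.75 to 0.91. For TNFRSF9 the anti-PD1 value became -0.0463 with the covariate and -0.11 against 0 (-0.36 to 0.65), the combination value was -0.0041 to 1.01 and the anti-LAG3 value -0.20 to 0.80. CD96 with anti-LAG3 became -0.0198 with the covariate (-0.11 to 0.14), and CD40LG was -0.34 to 1.01 with anti-LAG3 and -0.0907 to 1.35 for the combination minus anti-PD1. The cause of these changes was not tested, beyond the smaller number of libraries when 1 is left out.

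For 31 calls, those of the list genes in all comparisons and of the T and B markers in the 3 slope comparisons of the combination, all 550 values under the alternatives kept their sign, and 158 were no longer called (126 of them with a library left out). The marker calls against anti-PD1 (CD3E, CD79B and SPIB) were lost with the covariate. These genes are among the markers that make up the covariate, so nothing can be read from this loss. Over all genes the number called also moved: 290 to 820 beside 719 for the combination slope (34 to 955 with a library left out), 9 to 71 beside 11 for anti-LAG3 (1 to 24), 18 to 196 beside 41 for anti-PD1 (0 to 122), 8 to 170 beside 100 against anti-PD1 (6 to 147), 55 to 207 beside 119 against anti-LAG3 (8 to 181) and 0 to 14 beside 0 for the non-additive term (0 to 5). For arm means it was 97 to 2191 beside 1560 for anti-LAG3 (424 to 2045), 392 to 862 beside 594 for anti-PD1 (0 to 1044) and 0 to 145 beside 1 for the combination (0 to 271). No paired analysis was possible because the number shared between arms is the antibody dose, which is part of the models, and each condition has 1 library. Depth limits CTLA4 and TIGIT, and for TNFRSF4 the 4 to 19 counts of a library.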
